A study of Mus musculus with 5 samples.

Results

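The miR-130 and miR-301 family is a group of microRNAs (miRNAs, short RNAs that guide Argonaute proteins to messenger RNAs) with a common seed, the stretch of bases 2 to 8 that pairs with a target. Its members on these arrays are miR-130a, miR-130b, miR-301a and miR-301b, which are 4 of 569 mouse miRNA probes. They were taken by name, as every miRNA probe called miR-130a, miR-130b, miR-301, miR-301a or miR-301b without a star, and no threshold on a value was used. The family itself was selected on earlier ratios of the same 5 arrays, so its ratios and p-values are a description and do not count as independent evidence.

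Each of 5 two-colour arrays joined small RNA from the hippocampus of 1 Met/Met (hBDNF Met/Met) and 1 Val/Val (hBDNF Val/Val) mouse. All were adult knock-in mice of the 129/Sv strain aged 8 weeks, that carried the human form of the gene for BDNF (brain-derived neurotrophic factor, a secreted protein that acts on synapses), homozygous for methionine or for valine at its common variant site. The labels give Met/Met as Cy3 and Val/Val as Cy5 on every array, so dye and genotype cannot be told apart, and since every mouse carried the human form, the arrays do not compare it with unmodified mice. The deposited intensity columns are called Test and Cntrl, and no label ties them to a dye or a genotype. Ratios below are therefore log2 Test over Cntrl, and every sign would turn if the columns were read the other way round. Whether Test holds the same genotype on every array is not stated either, which matters most for replicate 3, as given with the results.

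In background terms, target choice of a miRNA rests mainly on its seed, so members of a seed family can repress overlapping sets of messenger RNAs. Members of this family are known to repress PPARγ, the main transcription factor of fat cell formation. MiR-130a is also known for repressing the homeobox factors GAX and HOXA5 in endothelial cells, which favours vessel growth.

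The 4 target sequences are shown because they set both the family and how well its probes can be told apart. Capitals mark the seed, and all are written 5′ to 3′ as the array tables give them.
miR-130a: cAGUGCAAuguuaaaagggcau
miR-130b: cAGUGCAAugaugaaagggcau
miR-301a: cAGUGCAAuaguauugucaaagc
miR-301b: cAGUGCAAugguauugucaaagc
MiR-130a and miR-130b differ by the substitutions U11A and A13G (positions counted from the 5′ end, the base of miR-130a first). MiR-301a and miR-301b differ only by A10G and share their last 13 bases, so signal on one probe of either pair may come in part from the other miRNA, which was not tested. Across the pairs the edit distance is 9 or 10, and the nearest probe outside the family lies 5 or more edits away. The closest of these is miR-721, at 5 edits from miR-130a, and it is the only other one of the 569 probes with the same seed at bases 2 to 8.

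By RefSeq on GRCm38.p6, 3 of the 4 sequences equal a mature entry, each the 3′ arm of its hairpin. MiR-130a lies at chr2:84741116-84741137 on the minus strand, in no other annotated gene. MiR-301a lies at chr11:87113054-87113076 on the plus strand, inside the span of Ska2, a gene for a mitotic spindle and kinetochore protein. MiR-130b lies at chr16:17124071-17124092 on the minus strand. The array sequence of miR-301b was found inside the RefSeq hairpin Mir301b, at chr16:17124420-17124442 on the same strand. The hairpins of miR-130b and miR-301b are 257 bases apart, within the span of 2610318N02Rik, so these members are genomic neighbours although their sequences differ after the shared 5′ end.

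MiR-130a, miR-130b and miR-301a were above background in both columns on all 5 arrays, and miR-301b was not set apart from unspecific binding on any. Background was read in 2 ways, from empty spots and from 136 mismatch-type control spots, whose 95th percentiles served as limits. For replicates 1 to 5 the mismatch-type limit was 167, 209, 107, 89.6 and 77.8 intensity units in Test and 379, 414, 399, 409 and 464 in Cntrl. With 5 arrays, the precision of every ratio is limited by their number.

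The intensity of miR-130a was 1024, 1679, 804, 564 and 620 in Test and 1539, 1735, 1411, 982 and 1383 in Cntrl, for replicates 1 to 5. It lay at 2.40 to 8.05 times the mismatch-type limit over the columns and arrays, well clear of it on each. The intensity of miR-130b was 205, 237, 151, 122 and 86.6 in Test and 492, 552, 509, 473 and 529 in Cntrl, which is 1.11 to 1.41 times the limit and so close above it throughout.

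The intensity of miR-301a was 261, 457, 273, 170 and 85.3 in Test and 624, 696, 488, 505 and 637 in Cntrl. It was 2.56 times the limit in Test on replicate 3 and 1.10 times on replicate 5. The intensity of miR-301b was 97.9, 113, 82.1, 68.6 and 41.5 in Test and 329, 366, 342, 371 and 408 in Cntrl, at 0.53 to 0.91 times the limit. It exceeded the empty-spot limit on all 5 arrays in both columns, by as little as 1.02 times in Cntrl on replicate 5. Readings were higher in Cntrl on every array for all 4, as were those of the empty spots, so raw intensities of the columns were not set against each other without normalization.

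**Figure D1:**
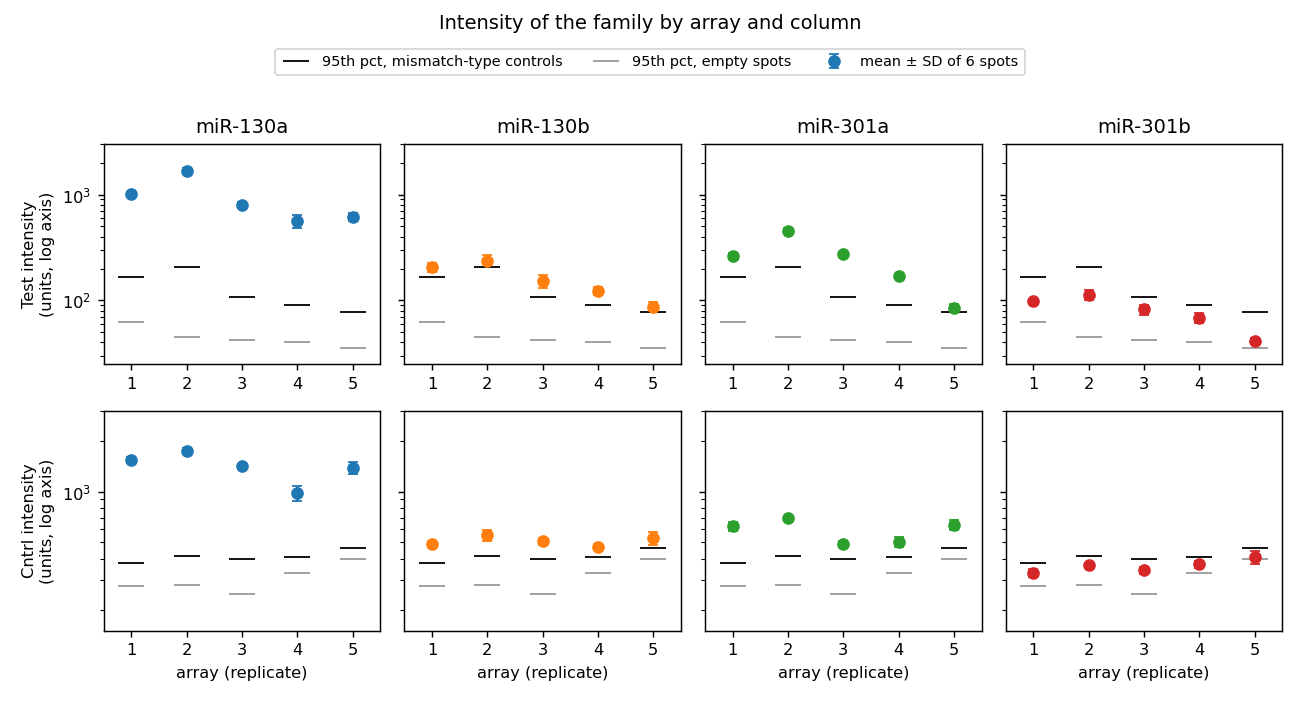
Mean intensity of the 4 family members in the Test column (top) and the Cntrl column (bottom) on each array, on log axes, with the SD of 6 spots. Black dashes are the 95th percentile of the mismatch-type control spots and grey dashes that of the empty spots. MiR-130a lies far above both, miR-130b and miR-301a lie above the black dashes, and miR-301b lies between the black and the grey.

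No member differed between the columns after adjustment over all miRNAs. After normexp background correction and loess within each array, the normalized log2 ratio (Test over Cntrl) was fitted in limma over 568 miRNAs. At an adjusted p of 0.05 the fit called 0 of 4 members and 0 of 568 miRNAs (0%), while 110 miRNAs (19.4%) had an unadjusted p under 0.05, among them 1 member, miR-130b. Of the 4 means, 2 were above and 2 below 0 with a median of −0.02, beside 293 above and 275 below with a median of 0.00 over all miRNAs tested. The family median ran from −0.17 (replicate 1) to 0.08 (replicate 3) over the arrays, so the family as a whole took no common side. With each array centred on its median in place of loess, miR-130a (0.30), miR-130b (−0.17) and miR-301b (−0.12) passed, at adjusted p of 0.029, 0.020 and 0.044 in limma, where 248 of all miRNAs passed too.

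MiR-130b was the member with 1 direction over the arrays as deposited. Its log2 ratio was −0.16, −0.19, −0.11, −0.14 and −0.13 on replicates 1 to 5, lower in Test on all 5. The mean was −0.15 ± 0.03 (SD, n = 5 arrays; 95% interval −0.21 to −0.08), which is 1.11-fold higher in Cntrl, with an adjusted p of 0.093 in limma. By unadjusted p it ranked 9 of 568. It was among 61 miRNAs (10.7%) lower in Test at an unadjusted p under 0.05 and among 7 (1.23%) at an adjusted p under 0.10. A ratio below 0 on all 5 arrays was found for 63 miRNAs (11.1%), and one direction on all 5 for 112 (19.7%), so that direction alone does not mark it out. With array weights its adjusted p was 0.034 in limma, at a ratio of −0.15, and 21 of all miRNAs passed. With robust variances and an intensity trend the limma adjusted p was 0.148. Tested among only the miRNAs above the empty-spot limit in both columns on all 5 arrays, it was 0.183 in limma. Among only those above the mismatch-type limit it was 0.228 in limma.

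Markers of cell types are given beside it. Of the 6 measured brain miRNAs, 5 had means below 0 and 1 above, with a median of −0.10, and 0 passed. MiR-9, a miRNA of neural progenitors and neurons, stood at −0.17 ± 0.07 (SD, n = 5) and the neuronal miR-128 at −0.13 ± 0.13, both lower in Test on all 5 arrays like miR-130b. MiR-138 (−0.16 ± 0.24), miR-124 (−0.08 ± 0.15) and miR-137 (−0.04 ± 0.16) were each below 0 on 4 of 5 arrays. MiR-132 went the other way, at 0.16 ± 0.14 and above 0 on 4 of 5 arrays. All 5 myeloid and lymphoid miRNAs (median 0.05) and both choroid plexus miRNAs (median 0.21) had means above 0, and again 0 passed. Of these, 1 of the 5 and 1 of the 2 (miR-204) were above the mismatch-type limit in either column on 3 or more arrays. MiR-204 ran from −0.11 to 1.15 over the arrays, with a median of 0.13. Other lists were mixed: red blood cell 2 above 0 and 1 below, striated muscle 2 and 2, epithelial 1 and 4. The striated muscle miR-133b (−0.13 ± 0.13) was also lower in Test on all 5 arrays. Its signal was above the mismatch-type limit on 0 arrays in Test and 4 in Cntrl. The liver miRNA miR-122 was at 0.14. With replicate 3 turned, 4 of the 6 brain miRNAs were below 0, with a median of −0.05. The part of cell makeup in the miR-130b ratio was not tested.

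The SD of miR-130b between arrays was lower than the spread of its own spots alone would give. Its SD between arrays was 0.03, and 12 of the 568 tested miRNAs (2.11%) had a lower one, beside a median of 0.12. That SD belongs to the reported processing, with an offset of 50 and a signal close above the mismatch-type limit. In the authors' deposited values it was 0.06 about a mean of −0.22 (limma adjusted p = 0.292). With an offset of 16 the mean was −0.17 (limma adjusted p = 0.138). The SD between the 6 spots of miR-130b ran from 0.09 to 0.19 over the arrays, which alone would give an array mean an SD of 0.05. A value below that is not read as close agreement of the arrays. The 6 spots lie in an upper and a lower block of the array, 3 spots in each. The lower-block ratio was −0.03 on replicate 3 and −0.24 on replicate 5, and the upper-block ratio was −0.20 and −0.01 on the same arrays. All 10 block means were below 0, so the direction did not rest on either block, while the blocks of an array differed by up to 0.23.

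MiR-130a, which differs from miR-130b at 2 bases, had ratios on both sides of 0. They were −0.18, 0.20, 0.05, 0.00 and 0.20 on replicates 1 to 5, with 4 of 5 arrays above 0 and replicate 1 below. The mean was 0.05 ± 0.16 (SD, n = 5; adjusted p = 0.643 in limma). The SD between its spots was at most 0.09, so the spread between arrays exceeded that between spots. On replicate 1 it was lower in Test in both blocks (−0.19 and −0.18), and on replicates 2 and 5 higher in both.

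MiR-301a varied most within the family. Its ratio was −0.39, 0.10, 0.70, 0.04 and −0.70 on replicates 1 to 5. Replicates 3 and 5 thus lay on opposite sides of 0 by similar amounts, about a mean of −0.05 ± 0.53 (SD, n = 5; adjusted p = 0.934 in limma). Its SD between arrays was above that of 96.0% of the tested miRNAs. The SD between its spots was at most 0.16, and the blocks stood at 0.69 and 0.72 on replicate 3 and at −0.73 and −0.66 on replicate 5, so the swing was present in both blocks. Without replicate 5 its mean was 0.11, without replicate 1 it was 0.04, and without replicate 3 it was −0.23.

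Replicates 3 and 5 also opposed each other over all miRNAs, with a correlation of −0.56 across 568 miRNAs, and those of replicates 1 and 3 were at −0.30. Other pairs of arrays ran from 0.17 to 0.63. The correlations are descriptions across miRNAs that share a library and are not independent. Replicate 5 had the widest ratios, with an SD of 0.40 over all miRNAs beside 0.16 to 0.25 on the other arrays. In Cntrl on replicate 5, 406 miRNAs were above the empty-spot limit, beside 540 to 569 on the other arrays. The lowest ratio of miR-301a fell on replicate 5, at 1.10 times the mismatch-type limit in Test. No label ties the columns to a dye, so the direction of replicate 3 against the other arrays is not stated. Empty spots read higher in Cntrl on all 5 arrays, with medians of 208 in Cntrl and 38.2 in Test on replicate 3. The labels give each genotype the same dye on every array. Neither the labels nor the empty spots show replicate 3 swapped, and its turned values are given only as a check. With the sign of replicate 3 turned, miR-130b stood at −0.10 ± 0.12 (SD, n = 5; limma adjusted p = 0.351). It was then lower in Test on 4 of 5 arrays, with a wider spread. Turning any 1 array would do both to miR-130b, which was below 0 on all 5, so this shows nothing particular to replicate 3. Without replicate 3 the mean of miR-130b was −0.15 (limma adjusted p = 0.081). With replicate 3 turned, miR-301a stood at −0.33 ± 0.39 (0.292), miR-130a at 0.03 ± 0.17 (0.831) and miR-301b at −0.03 ± 0.07 (0.694), for a family median of −0.06. Again 0 of 568 miRNAs passed.

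MiR-301b, a single base away from miR-301a, was at −0.03, −0.01, 0.11, 0.08 and −0.08 on replicates 1 to 5, close to 0 on every array. The mean was 0.01 ± 0.08 (SD, n = 5; adjusted p = 0.875 in limma). At this signal, below the mismatch-type limit on every array, a difference in miR-301b could not be told from one in unspecific binding, and an offset of 50 in the correction draws dim ratios towards 0. In the authors' deposited table, whose background step is not given, miR-301b stood at −0.16, −0.15, 0.15, 0.09 and −0.55.

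**Figure D2:**
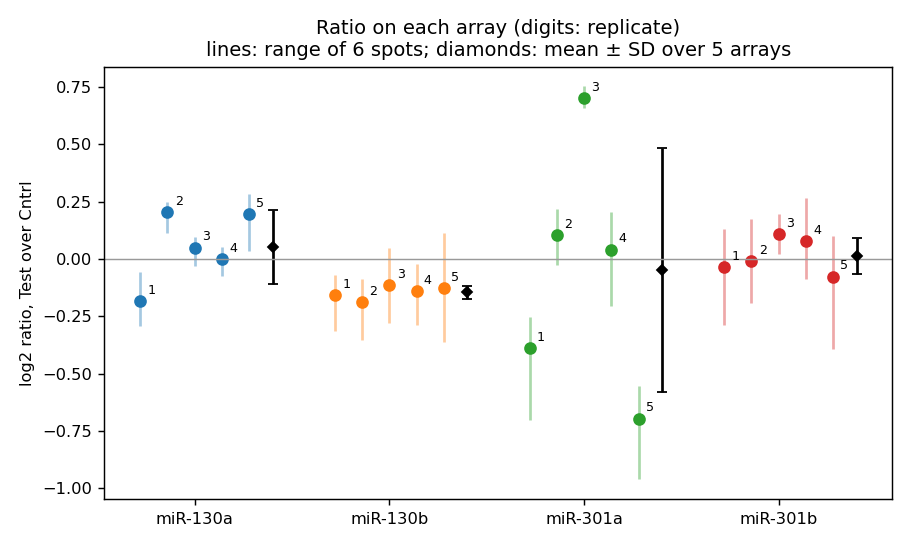
Log2 ratio (Test over Cntrl) of each member on each array, numbered by replicate, with the range of the 6 spots as a line and the mean ± SD over 5 arrays as a diamond. The 5 points of miR-130b lie between −0.19 and −0.11, and those of miR-301a between −0.70 and 0.70.

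The authors' own normalized ratios, deposited as a table without a stated scale, can be set beside these values. Over the 143 brighter miRNAs they followed the ratios used here with a correlation of 0.98 or higher on each array and a slope of 0.99 to 1.02, so that table is on the log2 scale and in the direction Test over Cntrl. None of the family is among those 143. Over all 568 miRNAs the correlation was 0.80, 0.93, 0.89, 0.80 and 0.77 on replicates 1 to 5, so at lower signal the values depend more on the processing. Column medians were −0.05 to −0.02. The authors' deposited table gives miR-130b as −0.21, −0.23, −0.15, −0.21 and −0.31, again below 0 on all 5 arrays. In the authors' deposited table miR-301a reads −0.45, 0.11, 0.86, 0.09 and −1.06, a wider swing in the same order of arrays. The authors' deposited table gives miR-130a as −0.21, 0.24, 0.05, 0.03 and 0.20.

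**Figure D3:**
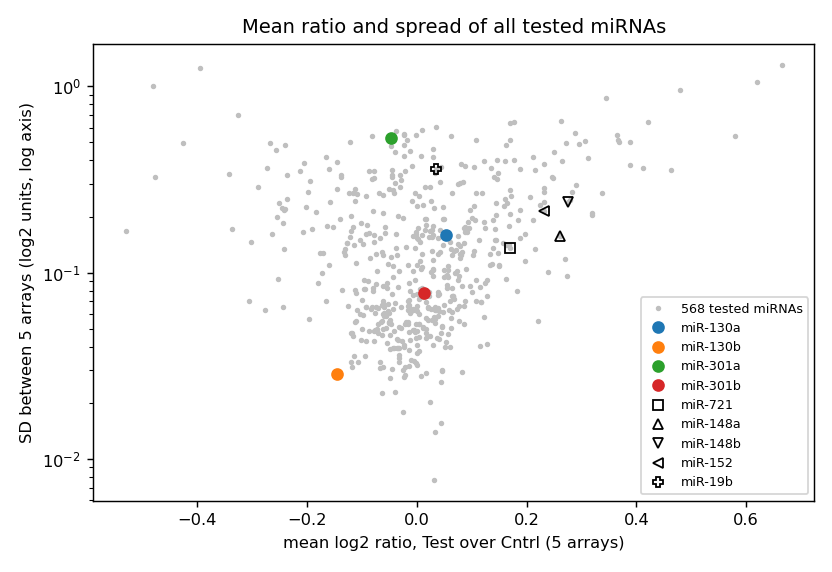
Mean log2 ratio (horizontal) against the SD between 5 arrays (vertical, log axis) for the 568 tested miRNAs in grey, with the family in colour and seed relatives as open symbols. MiR-130b sits at the low end of the spread (0.03) and miR-301a near the top (0.53).

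Members were set against each other on the same arrays in 6 pairs. The 3 pairs with miR-301b are not read, since that probe was below the mismatch-type limit on every array. With 5 arrays an exact two-sided sign-flip test cannot go below 0.0625, so no pair could pass at 0.05. MiR-130a minus miR-130b was 0.20 ± 0.16 (SD, n = 5; 95% interval −0.01 to 0.40) and above 0 on 4 of 5 arrays (exact p = 0.125, adjusted p = 0.375 over the 6 pairs). With replicate 3 turned it was 0.13. MiR-130a minus miR-301a was 0.10 ± 0.55 (interval −0.59 to 0.79) and miR-130b minus miR-301a was −0.10 ± 0.53 (interval −0.75 to 0.56), intervals that leave room for a difference either way. Turning replicate 3 moved these to 0.36 and 0.23.

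The opposite arm of miR-130b, listed as miR-130b*, was the one passenger strand of the family on the arrays.
miR-130b*: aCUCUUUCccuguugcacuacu
Its ratio was −0.03, −0.04, −0.01, 0.02 and 0.06 on replicates 1 to 5, with a mean of 0.00 ± 0.04 (SD, n = 5). Its signal stayed below the mismatch-type limit on every array, so it gives no second reading of the miR-130b hairpin.

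The same-seed miR-721 and relatives with a shifted seed are shown to place the family beside its closest sequences. Capitals again mark bases 2 to 8, and the motif GUGCAA is common to the seeds of the family and of miR-19b, while AGUGCA is common to those of the family and of miR-148a.
miR-721: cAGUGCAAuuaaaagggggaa
miR-148a: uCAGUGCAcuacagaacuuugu
miR-19b: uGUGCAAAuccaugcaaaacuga
MiR-721, encoded within the span of Cux1, had a ratio of 0.34, 0.20, 0.23, 0.06 and 0.01, above 0 on all 5 arrays, where 49 of the tested miRNAs (8.63%) were. Its mean was 0.17 ± 0.14 (SD, n = 5; adjusted p = 0.215 in limma), and its signal was below the mismatch-type limit on every array in both columns. As for miR-301b, a difference at that level could not be told from one in unspecific binding, so miR-721 gives no second reading of the seed. With replicate 3 turned its mean was 0.08.

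MiR-148a, miR-148b and miR-152, known for repressing the DNA methyltransferase DNMT1, had means of 0.26 ± 0.16, 0.27 ± 0.24 and 0.23 ± 0.21 (SD, n = 5). All 3 were above 0, with a median of 0.26, and 0 of 3 passed (limma adjusted p = 0.152, 0.221 and 0.222), though all 3 had an unadjusted p under 0.05 like 49 miRNAs (8.63%) higher in Test. With replicate 3 turned their means were 0.17, 0.08 and 0.23. The family, by comparison, held means on both sides of 0, a difference that was not tested. MiR-19a and miR-19b, which belong to the growth-promoting miR-17-92 cluster, had means of −0.04 ± 0.04 and 0.03 ± 0.36. The signal of miR-19a was below the mismatch-type limit on every array in both columns, so its ratio could not be told from unspecific binding. MiR-19b stood at −0.10, 0.08, 0.48, 0.20 and −0.48 on replicates 1 to 5, highest on replicate 3 and lowest on replicate 5 like miR-301a. These arrays opposed each other over all miRNAs (correlation −0.56), so that order is not read as particular to seed relatives. In Test on replicate 5, miR-19b was at 0.998 times the mismatch-type limit. With replicate 3 turned, miR-19a was at 0.00 and miR-19b at −0.16.

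**Figure D4:**
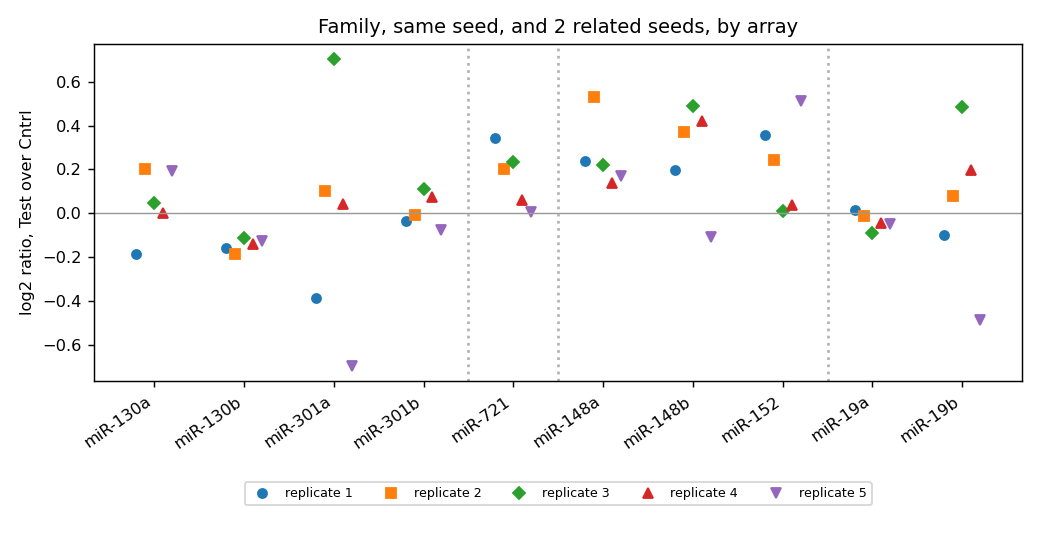
Log2 ratio (Test over Cntrl) by array for the family, for miR-721 with the same seed, and for the miR-148 and miR-19 groups, divided by dotted lines. Replicate 3 is the highest and replicate 5 the lowest point of both miR-301a and miR-19b, while miR-130b stays below 0 on all arrays. Replicates 3 and 5 also opposed each other over all miRNAs.

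The miRNAs most like each member were found by the root mean square difference of the log2 ratios over 5 arrays, among 318 miRNAs above the mismatch-type limit. For miR-130b they were miR-540-3p, miR-491 and miR-127*, at 0.05, 0.05 and 0.06. For miR-301a they were miR-381, miR-551b and miR-382*, at 0.12, 0.12 and 0.13. Each had its highest ratio on replicate 3 and its lowest on replicate 5, which a choice by likeness to miR-301a favours in advance. For miR-130a they were miR-539, miR-676 and miR-222 (0.07, 0.07 and 0.13), and for miR-301b miR-221, miR-24-2* and miR-27a (0.05 each). Since miR-301b itself lay below the mismatch-type limit on every array, its neighbours are not read.

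Because miR-130a is known from endothelium, the vascular list was read beside it. Of its 6 measured miRNAs, 0 passed, 4 had means above and 2 below 0, and the median was 0.04. The endothelial miR-126-3p stood at 0.08 ± 0.07 (SD, n = 5; limma adjusted p = 0.283), above 0 on all 5 arrays. Its opposite arm miR-126-5p stood at 0.41 ± 0.37 (limma adjusted p = 0.222), above 0 on 4 of 5 arrays, and the median of the 2 was 0.24. The signal of miR-126-5p was above the mismatch-type limit on 3 arrays in Test and 2 in Cntrl, so that median rests in part on a dim probe. The part of vessels in the miR-130a values was not tested. As a check of the tissue, the 6 measured brain miRNAs were above the mismatch-type limit in Test on all 5 arrays, while 0 of 5 epithelial miRNAs were above it in either column on 3 or more arrays. By that same measure 4 of 4 striated muscle miRNAs, the liver miRNA miR-122, 1 of 2 choroid plexus miRNAs (miR-204), 2 of 3 red blood cell miRNAs and 1 of 5 myeloid and lymphoid miRNAs were above it. In a dissected tissue, fewer cells of a type and less of a miRNA per cell cannot be told apart.

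**Figure D5:**
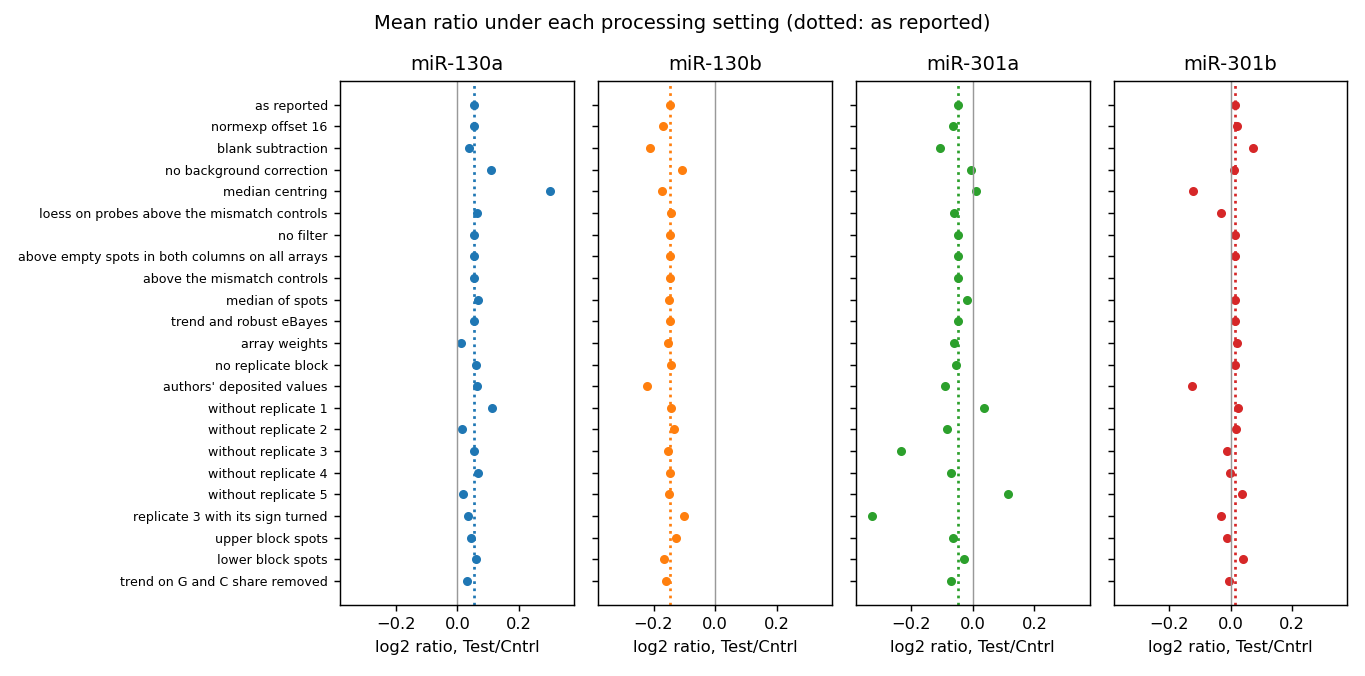
Mean log2 ratio (Test over Cntrl) of each member under the reported processing and each alternative, with the reported value dotted. The setting with no normalization is left out, since there the median of all miRNAs was −0.77. MiR-130b stays below 0 in every setting shown, from −0.22 to −0.10, while miR-301a and miR-301b fall on both sides. Filters, the variance model and leaving out an array could not have brought miR-130b above 0.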

How the data were processed

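Per the file headers, the authors deposited linear spot intensity per array (foreground mean and SD, a background column of 0 throughout) for a Cntrl and a Test column, with 3968 spots, 6 per miRNA. They also deposited normalized ratios per miRNA, matched here to the log2 scale. The authors' normalization method is not given in the sources used here, and neither is the array platform's maker. Members, lists and tests were chosen with earlier results of these data known, and the mismatch-type controls (names with MM-20B, M05 or M10) after their values were seen: 20 bright spots with MM in their names were left out.

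Both columns were corrected with normexp (offset 50) and normalized by loess within arrays, control spots at weight 0. Spots were averaged on the log2 scale. A miRNA was tested if above the 95th percentile of 266 empty spots in at least 1 column on 3 arrays (568 of 569, all 4 members). Ratios were fitted with an intercept in limma 3.58.1 (R 4.3.3), two-sided, with Benjamini-Hochberg adjustment over 568 miRNAs, and the fit was tested on simulated data. Each array holds a pair of mice, so the ratio carries the replicate block. The labels call the arrays biological replicates. Intervals of pair differences use the t distribution. Named miRNAs are the members, the same-seed and shifted-seed miRNAs, the passenger strand, the vascular list and the 3 nearest per member. Alternatives covered background correction, normalization, filters, spots, the variance model, array weights, the pairing and each array left out. Figures were drawn with matplotlib 3.10.9.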

Additional observations from a re-analysis of the deposited data

How the results depend on the processing

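MiR-130b stayed below 0 under all 23 alternatives (−0.90 to −0.10, limma adjusted p from 2.1e-06 to 0.389). Several of these could not have turned it. The filters and the variance model leave its ratio as it is, and its ratio was below 0 on every array, so leaving out an array cannot raise the mean above 0. It passed the threshold with median centring (−0.17), array weights (−0.15) and no normalization (−0.90). Without normalization all miRNAs had a median of −0.77 and the family one of −0.78, with miR-130a at −0.43, miR-301a at −0.72 and miR-301b at −0.85. Median centring also carried miR-130a past the threshold (0.30). It turned miR-301a to 0.0091 and miR-301b to −0.12. MiR-301b turned as well with the authors' deposited values (−0.12), with loess on probes above the mismatch-type controls (−0.029), and, among settings chosen after seeing the data, with replicate 3 turned (−0.030), upper-block spots (−0.013) and a trend on G and C share removed (−0.0039).

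Leaving out each replicate gave 0.02 to 0.11 for miR-130a, −0.15 to −0.13 for miR-130b, −0.23 to 0.11 for miR-301a, −0.011 to 0.036 for miR-301b and −0.08 to 0.03 for the family median. The miRNAs past the threshold numbered 0 to 5 in these fits, with 5 without replicate 3. They numbered 248 with median centring, 442 without normalization, 4 with robust variances and an intensity trend, 21 with weighted arrays, 9 at an adjusted p of 0.10 and 110 at an unadjusted p of 0.05. They numbered 2 with an offset of 16, the authors' deposited values, lower-block spots or the G and C trend removed, and also 2 without the replicate block, where miR-130b was at −0.14 (limma adjusted p = 0.340).

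Of the member differences, miR-301a minus miR-301b turned to 0.13 with median centring or no normalization and to 0.034 with the authors' deposited values. MiR-130a minus miR-301b turned to −0.035 with blank subtraction and miR-130b minus miR-301a to 0.23 with replicate 3 turned. Over the arrays left out, miR-301a minus miR-301b ran from −0.22 to 0.079, miR-130a minus miR-301a from −0.10 to 0.29, miR-130a minus miR-301b from −0.018 to 0.087 and miR-130b minus miR-301a from −0.26 to 0.081. The cause of these changes was not tested, and the pairs with miR-301b are listed for the record without being read. Signal near the mismatch-type controls limits miR-130b, and miR-301b lies below them.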
